A study of Mus musculus with 8 samples.

Results

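The muscle intermediate filament genes Des, Synm, Vim, Nes and Lmna were examined for myogenin and p300 peaks in differentiating mouse myoblasts. Every called peak, here an interval of a peak list, that lay within 50 kb of 1 of the 5 gene bodies was taken, with gene bodies from the GENCODE vM1 annotation of the mm9 genome. This gave 55 of the 43759 intervals in the 4 lists. They were 8 of 5912 myogenin intervals in the control, 13 of 6642 myogenin intervals with bexarotene, 24 of 22051 p300 intervals in the control and 10 of 9154 p300 intervals with bexarotene.

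The study asked where myogenin and p300 sit on chromatin when differentiation is enhanced by signaling through the retinoid X receptor (RXR). C2C12 myoblasts, an established line of strain C3H that fuses into myotubes when serum is lowered, were differentiated for 24 h without bexarotene (Ctl) or with 50 nM bexarotene (Bex), a selective RXR agonist. Myogenin and p300 were each immunoprecipitated and sequenced in 1 library per condition, named Myog_Ctl, Myog_Bex, p300_Ctl and p300_Bex, so that all 4 groups share the line, the differentiation medium and the time. With 1 library a group, no difference between conditions has a replicate check, and none was tested. The lists give positions and lengths but no tag counts or scores, so the depth behind each interval is unknown, and how near a site of 1 list came to the threshold in the other cannot be seen. The lists also hold no expression values, and the identity of the cells was not checked against marker genes.

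Intermediate filaments are rope-like polymers that give cells mechanical strength. In muscle, desmin links neighboring myofibrils to each other, to the membrane and to the nucleus, and synemin assembles together with it, while vimentin and nestin are characteristic of proliferating and newly fused cells and recede as the fibers mature. Lamin A and lamin C, spliced from the single gene Lmna, form the meshwork under the nuclear envelope, and mutations in Lmna or Des cause muscle disease. Myogenin is a basic helix-loop-helix factor that pairs with E-proteins on the E-box and drives terminal differentiation, and p300 is a histone acetyltransferase found at active enhancers and promoters.

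The genes differed in how myogenin intervals were divided between the conditions. Lmna, the lamin A/C gene, held 7 myogenin intervals with bexarotene and 1 in the control, and none of them overlapped between the lists. Nes, the nestin gene, held 4 with bexarotene and 2 in the control, and both control intervals were found again with bexarotene. Des, the desmin gene, held 3 in the control and 0 with bexarotene, Vim, the vimentin gene, held 2 in each list at different places, and Synm, the synemin gene, held none in either, as did 58.6% of all protein-coding genes. For p300, the counts in the control and with bexarotene were 4 and 2 at Des, 1 and 1 at Synm, 8 and 4 at Vim, 3 and 1 at Nes, and 8 and 2 at Lmna. The p300 list was also smaller with bexarotene over the whole genome, at 9154 against 22051 intervals.

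**Figure D1:**
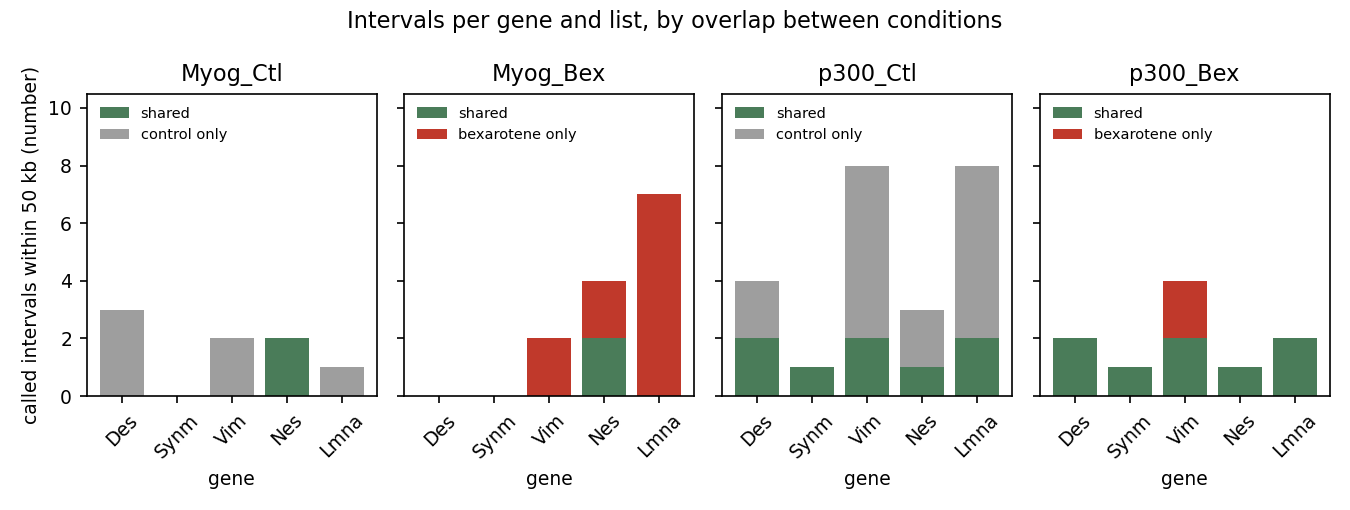
Number of called intervals within 50 kb of each gene body in each of the 4 lists, with 1 library a list and bars from 0. Bar segments are intervals unique to the control (gray), unique to bexarotene (red) or shared, which means overlapping an interval of the same factor in the other condition by at least 1 bp (green). All 7 Myog_Bex intervals of Lmna are unique to bexarotene, and bexarotene-only p300 intervals are seen at Vim, where there are 2.

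These counts were read against 22380 protein-coding genes treated in the same way. At least 1 interval within 50 kb was found for 32.4% of genes in Myog_Ctl, 33.0% in Myog_Bex, 53.7% in p300_Ctl and 35.2% in p300_Bex. Of the 5 filament genes, 4, 3, 5 and 5 had one in these lists. The 7 Myog_Bex intervals at Lmna were matched or passed by 0.684% of genes, and an excess of Myog_Bex over Myog_Ctl as large as that at Lmna was found at 19 genes (0.0849%). Intervals can be counted for several neighboring genes, so these genes are not independent, and Lmna was singled out among the 5 after its counts were seen. The 4 Myog_Bex intervals at Nes were reached by 4.21% of genes and the 3 Myog_Ctl intervals at Des by 7.51%. Counts of 2 were more common, reached by 14.9% of genes in Myog_Ctl, as at Vim and Nes, by 15.6% in Myog_Bex, as at Vim, and by 14.7% in p300_Bex, as at Des and Lmna. The 4 p300_Ctl intervals at Des were reached by 14.3% of genes and the 3 at Nes by 22.1%. The 8 p300_Ctl intervals at Vim and at Lmna were reached by 3.19% of genes, and the 4 p300_Bex intervals at Vim by 3.54%. An excess of p300_Ctl over p300_Bex as large as the 4 at Vim was found at 7.13% of genes. Lmna has a body of 28809 bp, longer than those of 66.1% of genes, and Synm, with no myogenin interval at all, has one of 29582 bp, longer than those of 66.8%.

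**Figure D2:**
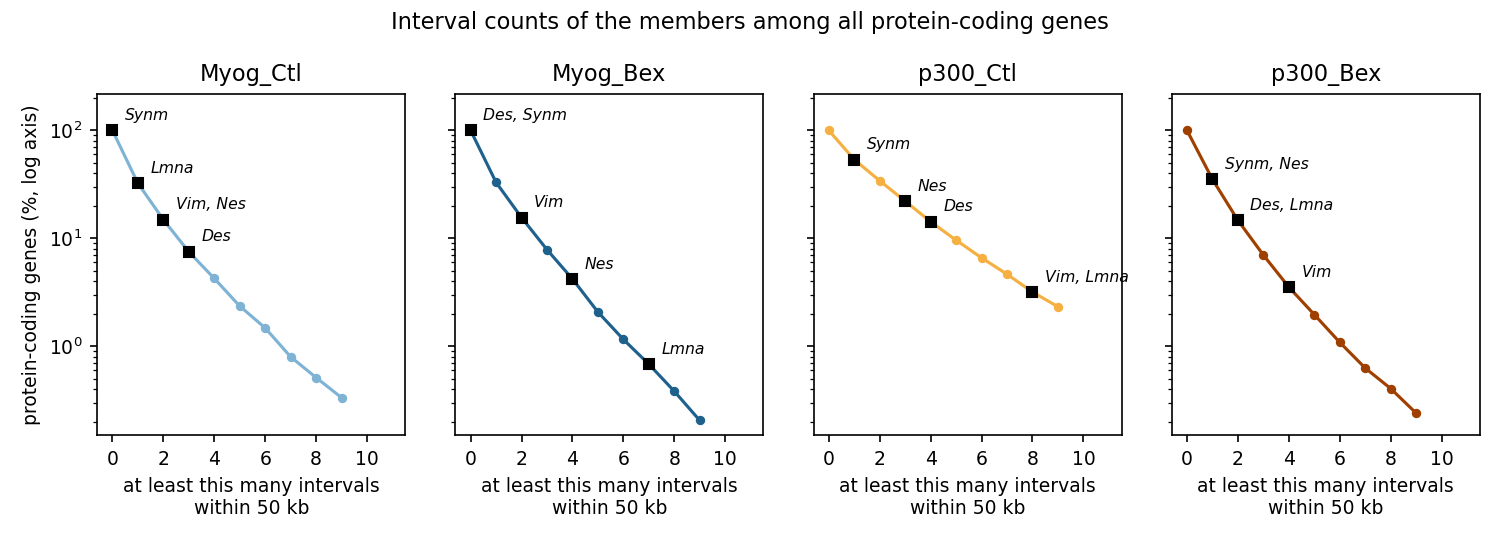
Percentage of 22380 protein-coding genes (log axis) with at least the number of intervals on the x axis within 50 kb of the gene body, 1 panel a list. Black squares mark the counts of the 5 filament genes, and Lmna stands farthest along the Myog_Bex curve, at 7 intervals and 0.684% of genes.

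Pooled over the 5 genes, the myogenin intervals were 6 control only, 2 regions shared and 11 bexarotene only. Bexarotene-only intervals thus made up 11 of the 13 Myog_Bex intervals (84.6%, 95% Wilson interval 57.8 to 95.7%, counting error only), beside 54.9% of the whole Myog_Bex list. Lmna held 7 of the 11, and Vim and Nes held 2 each, a number of bexarotene-only intervals reached by 8.46% of genes. Control-only intervals made up 6 of the 8 in Myog_Ctl (75.0%, 40.9 to 92.9%), beside 49.4% of that list. The 3 at Des were reached by 3.66% of genes and the 2 at Vim by 8.26%. For p300, 16 of 24 control intervals (66.7%, 46.7 to 82.0%) and 2 of 10 bexarotene intervals (20.0%, 5.67 to 51.0%) were unique to their condition, beside 67.3% and 20.3% of the whole lists. The 6 control-only p300 intervals at Vim and at Lmna were reached by 3.15% of genes, the 2 at Des and at Nes by 26.3%, and at least 1 was found at 47.5% of genes, though none at Synm. The 2 bexarotene-only p300 intervals at Vim were reached by 2.49% of genes. The p300 division at these genes was close to that of the lists as a whole.

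**Figure D3:**
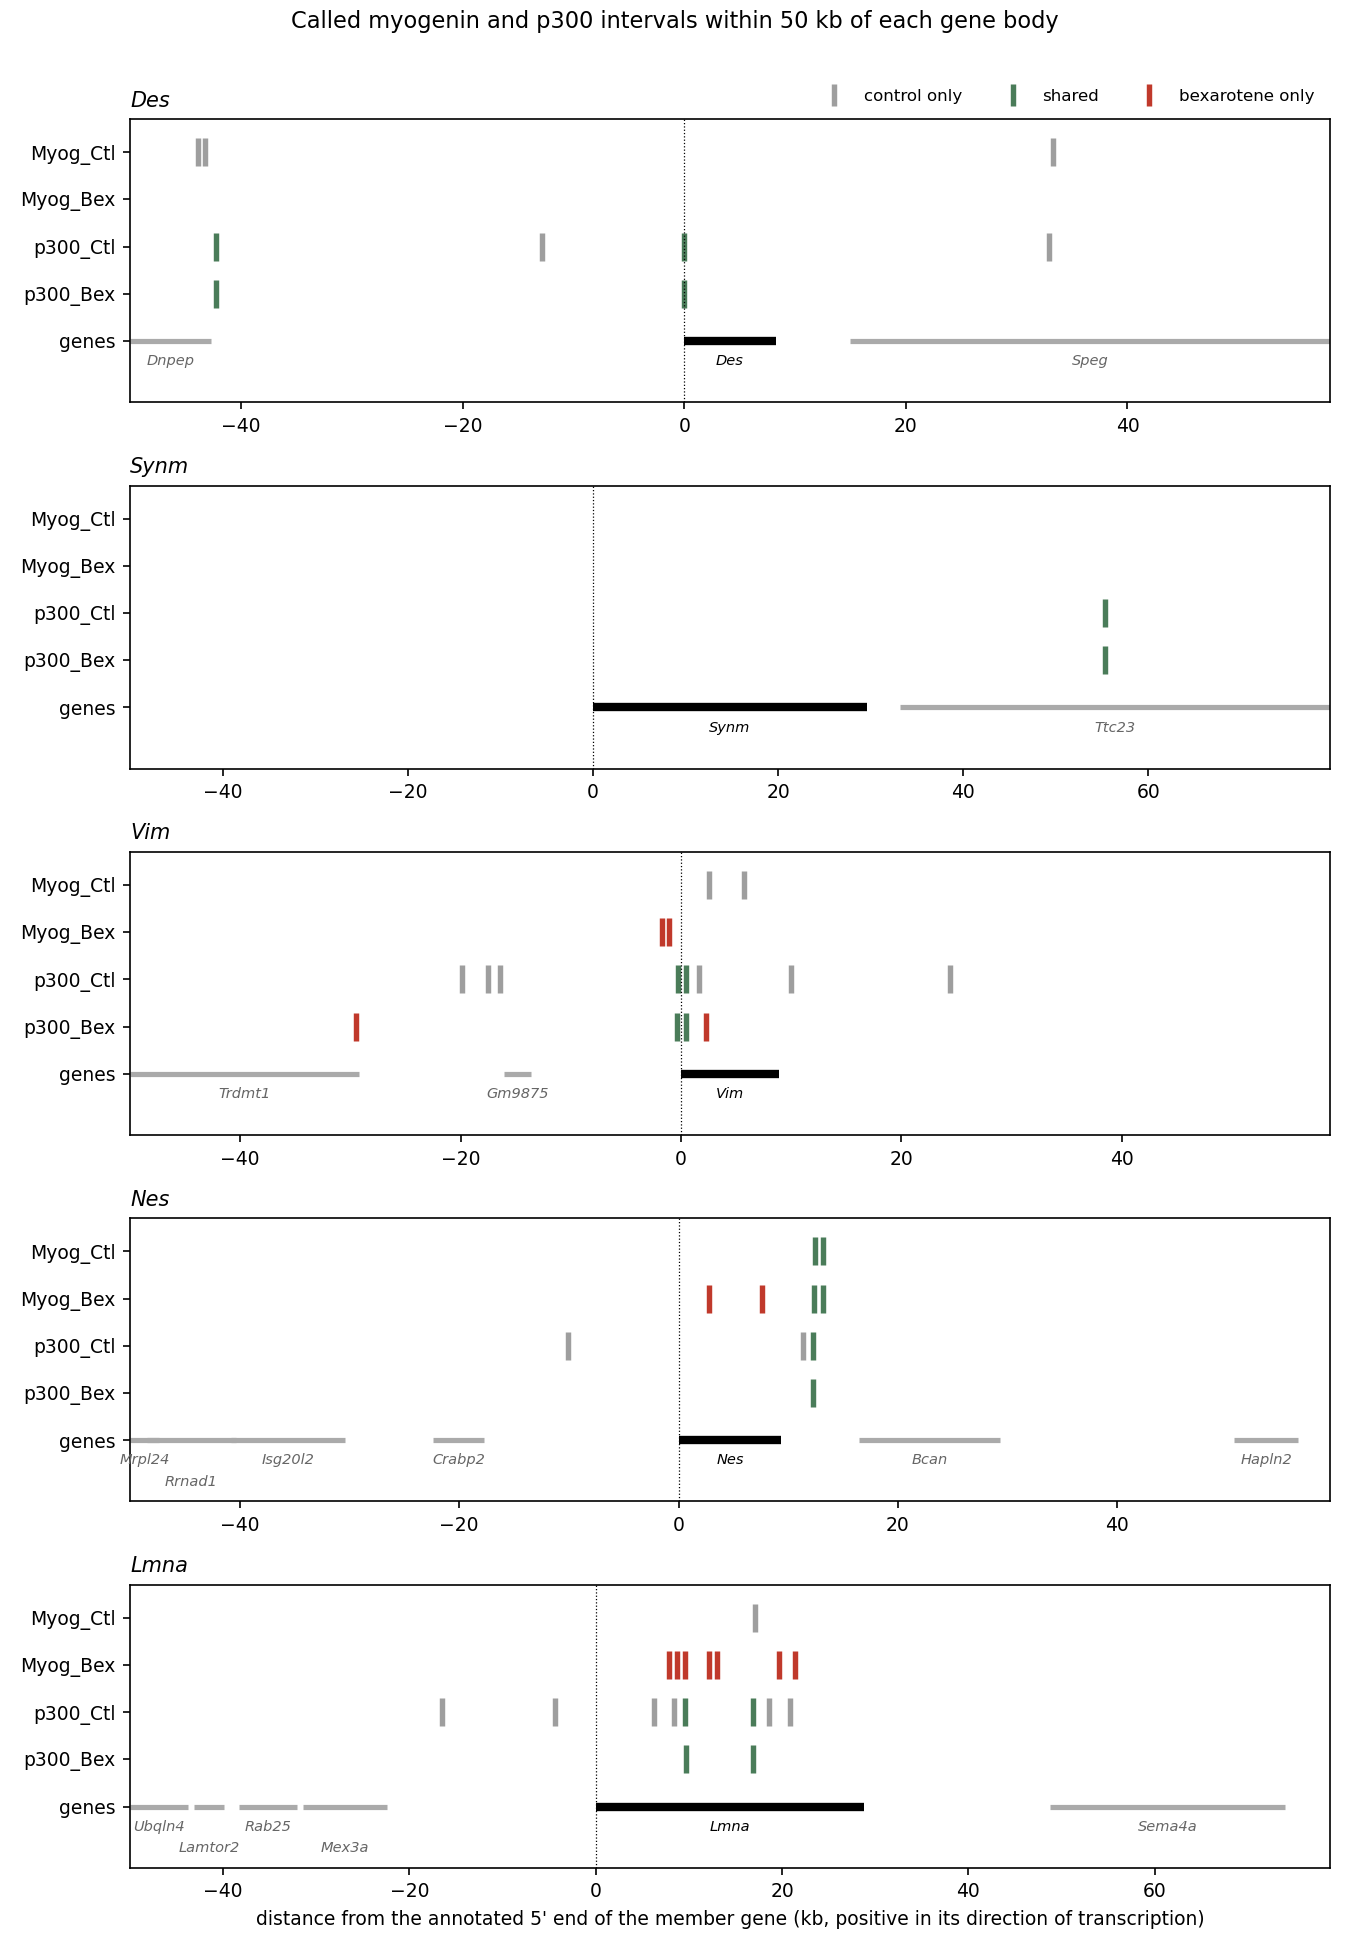
Position of every interval within 50 kb of each gene body, in kb from the annotated 5′ end and positive in the direction of transcription, with the filament gene in black and other protein-coding genes in gray. Ticks mark interval centers and are wider than the intervals, and colors give control only (gray), shared (green) and bexarotene only (red). The bexarotene-only myogenin ticks of Lmna all lie within the gene, whereas the control-only myogenin ticks of Des lie at least 33.2 kb from its start.

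At Des, which encodes the main filament of mature muscle, p300 was called over the promoter in both conditions and myogenin was not called there in either. The p300_Ctl interval at chr1:75356711-75357133 was 423 bp long with its center 18 bp inside the gene, and the p300_Bex interval at chr1:75356718-75356964 was 247 bp long with its center 63 bp upstream of the start. A p300 interval center within 1 kb of a start in both lists was found at 3.02% of genes. The sequence of the p300_Bex interval up to the start is shown because it is the region over the Des start itself that was called in both conditions. Capitals mark the E-box CAGCTG at chr1:75356831-75356836 and both GC boxes of the Sp1 family (GGGCGG or CCGCCC).
Des promoter, plus strand, chr1:75356718-75356903: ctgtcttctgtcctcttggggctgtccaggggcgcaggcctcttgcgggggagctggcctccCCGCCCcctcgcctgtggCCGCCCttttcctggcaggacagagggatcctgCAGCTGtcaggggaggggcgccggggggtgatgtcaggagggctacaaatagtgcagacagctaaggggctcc
The whole p300_Bex interval held 3 GC boxes and the longer p300_Ctl interval 4. GC boxes were present in 10.9% of all p300_Bex intervals and in 3.10% of windows of the same length 2 kb away. The nearest myogenin interval was 32930 bp from the p300_Ctl interval in the control and 146207 bp from the p300_Bex interval with bexarotene.

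The 3 control-only myogenin intervals at Des lay near or in neighboring genes. One at chr1:75313366-75313890 covered an internal annotated start of Dnpep, an aspartyl aminopeptidase gene on the opposite strand, was 525 bp long and held 2 E-boxes. Throughout, the E-box was counted as the palindrome CAGCTG and as the core CACCTG on either strand. Read on the plus strand, the latter can appear as CAGGTG. The others, at chr1:75312930-75313101 in Dnpep and chr1:75390064-75390235 in Speg, a kinase gene of striated muscle that follows Des on the same strand, were both 172 bp long and had no E-box. A length of 172 bp is the smallest in Myog_Ctl and was shared by 54.8% of its intervals. The interval in Speg lay 208 bp from a control-only p300 interval at chr1:75389697-75389855, which held an AP-1 site (TGACTCA or TGAGTCA). The nearest Myog_Bex interval to any of the 3 was 112936 bp away, and an excess of Myog_Ctl over Myog_Bex as large as that at Des was found at 1.62% of genes. Next to Dnpep there was also a shared p300 region, at chr1:75314583-75314741 in the control and chr1:75314567-75314724 with bexarotene. Its centers lay 450 and 434 bp upstream of the 5′ end of Dnpep, and the p300_Ctl interval was 692 bp from the longest of these myogenin intervals. The remaining control-only p300 interval, 12797 bp upstream of Des at chr1:75343985-75344228, held a MEF2 box, which was present in 4.35% of p300_Ctl intervals and 5.08% of windows 2 kb away. The nearest Myog_Ctl interval was 30094 bp from it.

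At Synm, which encodes the desmin partner synemin, a single p300 region was called, and it was shared. It lay at chr7:74849196-74849354 in p300_Ctl and chr7:74849251-74849447 in p300_Bex, inside the next gene, Ttc23, and 36204 and 36130 bp downstream of the nearest Synm start. The nearest myogenin interval was 237612 bp from the p300_Ctl interval in the control and 237671 bp from the p300_Bex interval with bexarotene. At least 1 shared p300 interval was found at 27.7% of genes in either p300 list. Genes with p300 but no myogenin interval in either list made up 22.6% of all genes. The p300_Bex interval is shown because an E-box core and an AP-1 site overlap in it by 2 bases, CAGCTG at chr7:74849313-74849318 and TGAGTCA at chr7:74849317-74849323, which are marked together in capitals.
Synm downstream region, plus strand, chr7:74849251-74849447: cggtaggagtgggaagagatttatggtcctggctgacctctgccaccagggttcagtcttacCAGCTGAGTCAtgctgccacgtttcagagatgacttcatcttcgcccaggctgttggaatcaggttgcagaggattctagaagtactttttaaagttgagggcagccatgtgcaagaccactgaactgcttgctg

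At Vim, a filament gene of proliferating myoblasts, the promoter carried p300 in both conditions while myogenin sat at different places in each. A p300 interval just upstream of the start was called at chr2:13495138-13495458 in the control (321 bp, center 256 bp upstream) and at chr2:13495072-13495312 with bexarotene (241 bp, center 362 bp upstream). A second shared region lay over exon 1, at chr2:13495809-13496165 in the control and chr2:13495969-13496126 with bexarotene. The upstream interval is shown for its pair of AP-1 sites, in capitals, at chr2:13495235-13495241 and chr2:13495249-13495255, both of which lie in the control interval as well.
Vim promoter, plus strand, chr2:13495072-13495312: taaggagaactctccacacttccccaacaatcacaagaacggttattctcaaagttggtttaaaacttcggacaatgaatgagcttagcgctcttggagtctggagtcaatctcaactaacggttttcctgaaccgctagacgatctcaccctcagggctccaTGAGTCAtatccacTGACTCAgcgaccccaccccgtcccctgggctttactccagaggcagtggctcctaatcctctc
Over all 5 genes, AP-1 sites were present in 11 of 24 p300_Ctl intervals (45.8%, Wilson interval 27.9 to 64.9%) and 4 of 10 p300_Bex intervals (40.0%, 16.8 to 68.7%). The whole lists held them in 31.6% and 28.3%, and windows 2 kb away in 4.72% and 4.01%. The Runx core, TGTGGT or ACCACA, was in 3 of 24 p300_Ctl intervals (12.5%, 4.34 to 31.0%) and 0 of 10 p300_Bex intervals (upper bound 27.8%). The whole lists held it in 36.4% and 34.1%, above these bounds, and windows 2 kb away in 19.4% and 16.5%. Several motifs were searched, and the bounds make no allowance for that. Of the 10 p300_Bex intervals, 8 were shared with p300_Ctl, so the 2 lists are not independent here.

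Both control-only myogenin intervals of Vim lay inside the gene, where at least 2 Myog_Ctl intervals were found for 2.94% of genes. One of them lay in intron 5 at chr2:13501230-13501401. Both bexarotene-only intervals lay upstream, 1702 bp from the start at chr2:13493768-13493935 and 1095 bp from it at chr2:13494375-13494542. All 4 were of the smallest length of their list, 172 bp in Myog_Ctl and 168 bp in Myog_Bex, and none held an E-box. The upstream interval farther from the start is shown to set it beside the E-box sequences of Nes and Lmna. Its capitals mark an AP-1 site.
Vim upstream, Myog_Bex, plus strand, chr2:13493768-13493935: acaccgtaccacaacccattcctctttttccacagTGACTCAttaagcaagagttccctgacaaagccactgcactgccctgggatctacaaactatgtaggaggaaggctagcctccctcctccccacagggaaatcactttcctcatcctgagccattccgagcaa
A bexarotene-only p300 interval in intron 2, at chr2:13497722-13497879, was 397 bp from a control-only p300 interval over exon 2 at chr2:13497055-13497324. Of the other control-only p300 intervals of Vim, 3 lay between 19.9 and 16.4 kb upstream, nearest to the start of Gm9875, at chr2:13475574-13475783, chr2:13477906-13478206 and chr2:13478830-13479466. The last of these was 637 bp long and held an AP-1 site. The other 2 lay downstream, 9.96 kb from the Vim start at chr2:13505460-13505618 and 24.4 kb from it at chr2:13519885-13520043. The second bexarotene-only p300 interval, chr2:13466013-13466170, lay 199 bp inside Trdmt1, an RNA methyltransferase gene, and had a GC content of 71.5% and 5 GC boxes.

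Nes, the nestin gene, held the single region of the 5 genes at which all 4 lists had an overlapping interval. It lies downstream of the last exon, 12.2 to 12.4 kb from the nearest Nes start. The intervals were chr3:87787313-87787527 in Myog_Ctl, chr3:87787254-87787510 in Myog_Bex, chr3:87787123-87787474 in p300_Ctl and chr3:87787116-87787436 in p300_Bex. Of the shared myogenin intervals of the whole genome, 30.1% in Myog_Ctl and 30.3% in Myog_Bex overlapped p300 in both conditions. At least 2 shared myogenin intervals were found for 5.66% of genes in Myog_Ctl and 5.71% in Myog_Bex. A second shared myogenin region followed at chr3:87788040-87788344 in Myog_Ctl (305 bp) and chr3:87787897-87788389 in Myog_Bex (493 bp), without p300. Both regions are shown because they are the only myogenin regions of the 5 genes called in both conditions. Their E-boxes are in capitals, 2 in the first and 4 in the second. The second is cut to 300 of the 305 bp of its Myog_Ctl interval.
Nes downstream region 1, Myog_Bex, plus strand, chr3:87787254-87787510: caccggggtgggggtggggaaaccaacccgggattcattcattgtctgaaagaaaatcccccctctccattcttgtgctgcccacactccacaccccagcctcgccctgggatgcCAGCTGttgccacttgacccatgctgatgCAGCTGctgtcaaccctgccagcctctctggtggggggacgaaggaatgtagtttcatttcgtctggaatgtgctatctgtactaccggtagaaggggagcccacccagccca
Nes downstream region 2, Myog_Ctl, plus strand, chr3:87788042-87788341: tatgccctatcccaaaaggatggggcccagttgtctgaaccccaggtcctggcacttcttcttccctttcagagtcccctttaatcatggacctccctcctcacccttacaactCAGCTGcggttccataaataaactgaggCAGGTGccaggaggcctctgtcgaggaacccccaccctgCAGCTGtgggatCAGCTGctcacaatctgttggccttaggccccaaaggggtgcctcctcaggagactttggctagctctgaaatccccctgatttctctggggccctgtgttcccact
Both E-boxes of the first region were CAGCTG, with 23 bases between them, and 3 of the 4 in the second were CAGCTG. Neighboring cores in the second were 22, 33 and 6 bases apart. Over the whole genome, 87.6% of shared Myog_Ctl intervals and 89.3% of shared Myog_Bex intervals held at least 1 E-box.

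The other 2 myogenin intervals of Nes were bexarotene only and lay within the gene, as at least 2 Myog_Bex intervals did for 3.36% of genes. One at chr3:87777715-87777882 (168 bp) was in intron 2, and the other at chr3:87782472-87782731 (260 bp) was over exon 4, the large final exon. Each held a single E-box, and the nearest p300 interval of either condition was 3506 bp or more away. The intron 2 interval is shown, with its E-box in capitals, as a bexarotene-only site of the smallest length that has the core, unlike those at Vim.
Nes intron 2, Myog_Bex, plus strand, chr3:87777715-87777882: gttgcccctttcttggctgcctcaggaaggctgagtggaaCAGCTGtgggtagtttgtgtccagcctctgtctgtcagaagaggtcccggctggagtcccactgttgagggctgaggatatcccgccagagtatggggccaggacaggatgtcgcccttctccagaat
The 2 control-only p300 intervals of Nes lay 10100 bp upstream of the nearest start, at chr3:87764836-87764994, and 11321 bp downstream of it, at chr3:87786238-87786505. The latter was 610 bp from the nearest p300_Bex interval and held both an E-box and an AP-1 site.

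**Figure D4:**
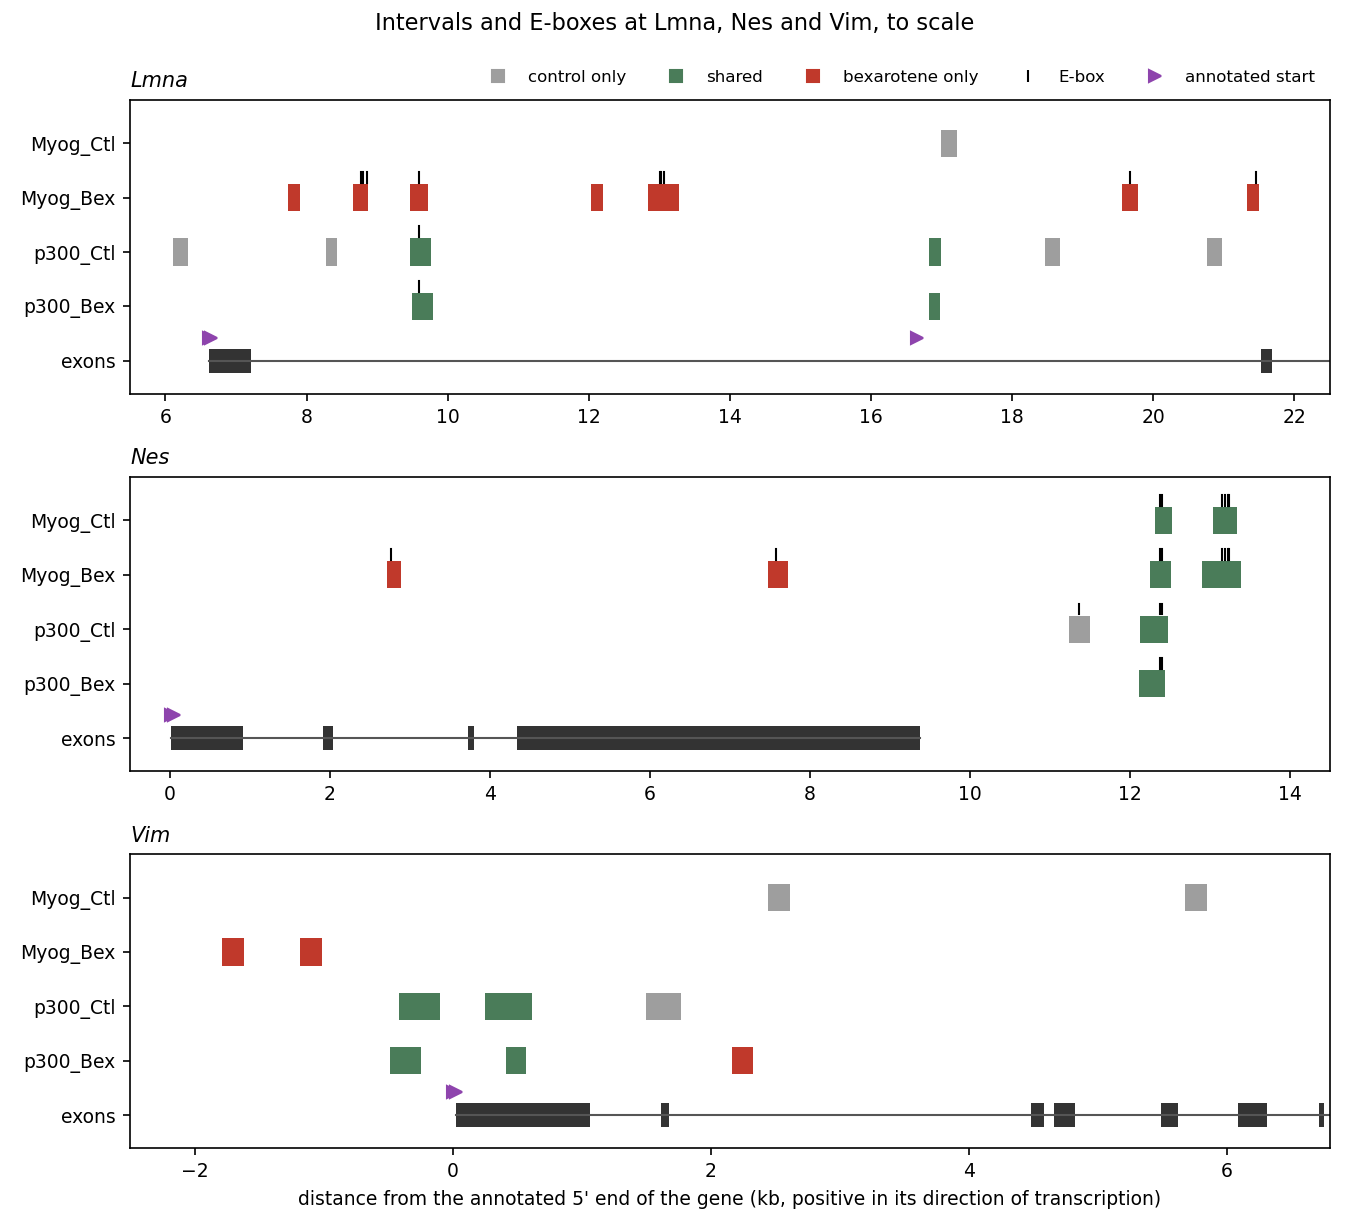
Intervals at Lmna, Nes and Vim drawn to scale, in kb from the annotated 5′ end of each gene, with exons of the reference transcript in black, annotated starts as purple triangles and E-boxes as black ticks above the intervals that hold them. Colors give control only (gray), shared (green) and bexarotene only (red). Lmna shows 7 red myogenin intervals between exon 1 and exon 2, Nes 2 green regions with E-boxes past its last exon, and Vim 4 myogenin intervals with none.

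At Lmna, all 7 Myog_Bex intervals lay in intron 1, which spans chr3:88292354-88306669 and is 14.3 kb long. They covered 13.8 kb of it from the first to the last base, with 589 to 6288 bases between neighbors. At least 7 Myog_Bex intervals overlapped the gene body in 0.107% of genes, and at least 7 bexarotene-only intervals lay within 50 kb of 0.156% of genes. An E-box was present in 5 of the 7, which together had 9, of which 7 were CAGCTG. The sequences of 4 of the intervals with an E-box are given, numbered by position, as examples of bexarotene-only myogenin intervals at this gene. Interval 3 is cut to 300 of its 427 bp. Capitals mark E-boxes and, in intervals 1 and 5, an AP-1 site as well. AP-1 sites were in 3 of the 13 Myog_Bex intervals of the 5 genes (23.1%, 8.18 to 50.3%) and 0 of 8 in Myog_Ctl. The whole lists held them in 13.6% and 11.7%, and windows 2 kb away in 4.2% and 3.92%.
Lmna intron 1, Myog_Bex interval 1, plus strand, chr3:88292382-88292549: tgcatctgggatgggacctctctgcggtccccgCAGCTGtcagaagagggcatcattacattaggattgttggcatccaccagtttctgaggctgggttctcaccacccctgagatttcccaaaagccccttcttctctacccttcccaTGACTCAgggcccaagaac
Lmna intron 1, Myog_Bex interval 3, plus strand, chr3:88300669-88300968: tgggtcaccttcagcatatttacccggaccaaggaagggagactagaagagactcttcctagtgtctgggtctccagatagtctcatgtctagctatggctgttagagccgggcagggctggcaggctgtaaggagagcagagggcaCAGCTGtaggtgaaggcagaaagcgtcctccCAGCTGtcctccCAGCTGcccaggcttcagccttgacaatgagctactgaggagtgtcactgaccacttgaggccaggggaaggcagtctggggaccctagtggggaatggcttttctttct
Lmna intron 1, Myog_Bex interval 5, plus strand, chr3:88304164-88304418: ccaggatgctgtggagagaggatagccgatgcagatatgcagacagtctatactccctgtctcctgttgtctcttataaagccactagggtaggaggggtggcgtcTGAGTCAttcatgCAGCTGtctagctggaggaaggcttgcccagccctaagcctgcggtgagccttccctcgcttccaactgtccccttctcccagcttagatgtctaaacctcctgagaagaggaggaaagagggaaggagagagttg
Lmna intron 1, Myog_Bex interval 6, plus strand, chr3:88305008-88305224: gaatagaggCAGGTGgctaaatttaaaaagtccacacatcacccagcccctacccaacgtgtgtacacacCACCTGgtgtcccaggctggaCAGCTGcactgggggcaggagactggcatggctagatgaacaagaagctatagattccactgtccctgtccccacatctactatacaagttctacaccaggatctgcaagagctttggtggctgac

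The longest, interval 3 at chr3:88300606-88301032 (427 bp), had 3 CAGCTG cores with 25 and 6 bases between them. Interval 6 also had 3 E-boxes, of which 1 was CAGCTG. Across the filament genes, 3 or more E-boxes were held by 3 of 13 Myog_Bex and 1 of 8 Myog_Ctl intervals. Such intervals made up 15.5% and 13.4% of the whole lists. With 2 or more E-boxes, the numbers were 4 of 13 and 3 of 8, beside 41.1% and 33.2% of the whole lists. The spacing of 6 bases, which was also found in the second Nes region, occurred in 1.13% of all Myog_Ctl and 1.23% of all Myog_Bex intervals. A MEF2 box, the site of the MEF2 factors, was in 2 of the 13 Myog_Bex intervals, both at Lmna (15.4%, 4.33 to 42.2%), beside 3.78% of all Myog_Bex intervals and 3.55% of windows 2 kb away. Intervals 1, 4 and 7 were of the smallest length of Myog_Bex, 168 bp, and with only longer intervals counted Lmna held 4 in Myog_Bex. Intervals 4 and 7, chr3:88301677-88301844 and chr3:88305971-88306138, had no E-box.

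Interval 5 at chr3:88304164-88304418 was the one bexarotene-only myogenin interval of the 5 genes that overlapped p300. The p300 intervals there, chr3:88304117-88304416 in the control and chr3:88304092-88304383 with bexarotene, were themselves shared, so p300 was called in both conditions at a place where myogenin was called with bexarotene alone. Overlap with p300 of the same condition was seen in 1 of 8 Myog_Ctl intervals of the 5 genes (12.5%, 2.24 to 47.1%) and 2 of 13 Myog_Bex intervals (15.4%, 4.33 to 42.2%), beside 33.0% and 25.6% of the whole lists. Overlap with p300 in either condition was seen in 1 of the 11 bexarotene-only myogenin intervals of the 5 genes, beside 30.9% of the bexarotene-only class in the whole genome.

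The single Myog_Ctl interval of Lmna, chr3:88296663-88296887, lay in the same intron, 459 bp past an internal annotated start. It was 2345 bp from the nearest Myog_Bex interval, had no E-box and lay 4 bp from a shared p300 region, at chr3:88296892-88297050 in the control and chr3:88296895-88297052 with bexarotene. It is shown as the only Myog_Ctl interval of this gene, with no marked site and a GC content of 64.9%. The Myog_Bex sequences above were all taken from intervals that hold an E-box, so the contrast in E-boxes was set by that choice.
Lmna intron 1, Myog_Ctl, plus strand, chr3:88296663-88296887: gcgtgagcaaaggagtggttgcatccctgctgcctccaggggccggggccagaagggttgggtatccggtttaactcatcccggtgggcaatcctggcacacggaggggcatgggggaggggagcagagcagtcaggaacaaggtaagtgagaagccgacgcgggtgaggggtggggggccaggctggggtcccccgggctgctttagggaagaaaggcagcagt
The 6 control-only p300 intervals of Lmna included 3 in intron 1, at chr3:88292909-88293111, chr3:88295207-88295407 and chr3:88305448-88305606. Another was centered 404 bp upstream of the exon 1 start, at chr3:88307558-88307764 with a pair of AP-1 sites. The remaining 2, chr3:88318141-88318349 and chr3:88330275-88330433, lay 4367 and 16476 bp upstream of the 5′ end of the gene. The last of these was nearest to the start of Mex3a, 5963 bp upstream of it. An excess of p300_Ctl over p300_Bex as large as that at Lmna was found at 2.55% of genes.

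The E-box was counted over all myogenin intervals of these genes. It was present in 9 of 13 Myog_Bex intervals (69.2%, Wilson interval 42.4 to 87.3%) and 3 of 8 Myog_Ctl intervals (37.5%, 13.7 to 69.4%). The whole lists held it in 77.2% and 65.2%, and windows 2 kb away in 25.3% and 24.9%. By class, it was found in both shared regions, in 7 of 11 bexarotene-only intervals and in 1 of 6 control-only intervals, beside 67.3% and 42.2% of the last 2 classes in the whole genome. For both lists the Wilson interval of the 5 genes included the share of the whole list. With the looser CANNTG the order of the lists turned, to 6 of 8 Myog_Ctl intervals (75.0%, 40.9 to 92.9%) and 9 of 13 Myog_Bex intervals (69.2%). The whole lists then held it in 82.4% and 90.6%, and the latter share is above the 87.3% upper bound of the 5 genes. Windows 2 kb away held it in 67.9% and 68.3%, inside the Wilson intervals of the 5 genes. The nuclear receptor half-site, AGGTCA or TGACCT, was in 1 of 8 Myog_Ctl, 1 of 13 Myog_Bex, 2 of 24 p300_Ctl and 1 of 10 p300_Bex intervals, and in 12.3 to 15.2% of the whole lists. The exact direct repeat of that half-site with 1 base between was in none of the 55 intervals, and in 0.0151 to 0.0338% of the whole lists. A match describes the letters of a sequence and does not show that a factor is bound there.

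Near the starts of Des, Vim and Lmna, p300 intervals outnumbered myogenin intervals, and at Synm and Nes no list had an interval center within 1 kb of a start. Such centers numbered 5 in p300_Ctl and 4 in p300_Bex, at 3 of the 5 genes in each, 1 in Myog_Ctl, at the internal start of Lmna, and 0 in Myog_Bex. Among all genes, 10.6%, 5.23%, 6.05% and 3.72% had such an interval, in the same order. The intervals that overlapped the gene body were 9 of 13 in Myog_Bex, of which 7 belonged to Lmna, 3 of 8 in Myog_Ctl, 9 of 24 in p300_Ctl and 5 of 10 in p300_Bex. They came from 2, 2, 3 and 3 of the 5 genes, beside 10.3%, 10.1%, 20.3% and 11.6% of all genes with at least 1 interval over the body. The interval counts themselves were not read against the share of all intervals of a list that overlap a gene body.

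Genes whose products work with these filaments were counted in the same way. Of 23 listed genes for filament partners and the nuclear lamina, 22 were in the annotation, and 14, 15, 17 and 14 of them had at least 1 interval in Myog_Ctl, Myog_Bex, p300_Ctl and p300_Bex. These are 63.6%, 68.2%, 77.3% and 63.6%, beside the 32.4%, 33.0%, 53.7% and 35.2% of all genes given above. The listed genes are long, with a median body of 33905 bp against 15420 bp over all genes, and the part of length in these shares was not tested. Plec, whose product plectin ties desmin to the Z-disc and membrane, held 9, 11, 9 and 3 intervals in the same order of lists. These counts were reached by 0.335%, 0.134%, 2.33% and 7.01% of all genes. Syne1, which encodes the nuclear envelope protein nesprin-1, held 5, 5, 12 and 5, reached by 2.36%, 2.08%, 0.943% and 1.97%. Dst, which encodes the cytoskeletal linker dystonin, held 1, 2, 16 and 6. Its counts of 1, 2 and 6 were reached by 32.4%, 15.6% and 1.09%, and at least 15 in p300_Ctl by 0.429%. The bodies of Plec, Syne1 and Dst are 61601, 530490 and 400371 bp long, and the part of length in their counts was not tested. Of the myogenin intervals at Plec, 5 were control only and 7 bexarotene only, the latter the same number as at Lmna. At least 7 bexarotene-only intervals were found at 0.156% of all genes and at least 3 control-only intervals at 3.66%. The share with at least 5 control-only intervals was not taken. Syne1 had 1 of each, and Dst had 0 control only and 1 bexarotene only. At least 1 control-only interval was found at 22.9% of all genes and at least 1 bexarotene-only interval at 25.1%.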

How the data were processed

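Per the labels, myogenin and p300 were immunoprecipitated from C2C12 myoblasts differentiated for 24 h in the absence or presence of 50 nM bexarotene, with 1 library a group. The authors aligned myogenin reads with BWA and p300 reads with Bowtie to mm9, removed duplicates with Picard and called peaks per library with HOMER. The deposited lists hold chromosome, start and end only, counted from 0 and printed here from 1, with no tag counts or scores. The input and H3K27me3 libraries were not used here.

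Intervals were assigned to protein-coding genes of GENCODE vM1 within 50 kb of the gene body, and distances were taken from the interval center to the transcription start site (TSS) of protein-coding transcripts. Intervals of a factor were shared when they overlapped by at least 1 bp, as in the study. Motifs were searched over whole intervals on both strands of mm9 and in flanking windows of the same length 2 kb to either side, without removing overlaps between different motifs. With 1 library a group no test was made, and shares carry 95% Wilson intervals for counting error only. The genes, the lists of partner, lamina and other-tissue filament genes and the motifs were chosen with earlier results of these data known. All 5 filament genes are named, with every interval counted and most described by position, neighboring genes where an interval lay in or nearest to them, and from each list the 3 genes with most intervals. One partner gene, Syne3, had no match in the annotation. Alternatives were windows of 10 and 100 kb, intervals longer than the smallest of their list, a nearest TSS of a member, other overlaps, TSS distances, TSS catalogs and E-box consensus sequences. The functions for overlap, interval counts per gene, Wilson intervals and the E-box, AP-1 and Runx sites were tested on simulated data. Distances and the other motifs were not tested in this way. Python 3.11.15, pandas 2.3.3, pysam 0.24.0 and statsmodels 0.14.6 were used. The sequences and positions of some intervals are not reported here.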

Additional observations from a re-analysis of the deposited data

How the results depend on the processing

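No paired analysis was possible because each group holds 1 library. A count was taken as moved when it changed by over 1.5 times, and a share when it left its 95% Wilson interval. For the counts and shares pooled over the 5 genes or over all genes, 27 of 74 values under another setting moved, and 18 of 60 did for single genes. With intervals longer than the smallest of their list, the counts in Myog_Ctl, Myog_Bex, p300_Ctl and p300_Bex went from 8, 13, 24 and 10 to 4, 7, 15 and 5. Control-only and bexarotene-only myogenin intervals then numbered 2 and 5, p300 intervals 4 shared and 1 bexarotene only, and Lmna kept 4 of its 7 Myog_Bex intervals while Vim lost all its myogenin intervals. Within 10 kb, Myog_Ctl held 5, p300_Ctl 14, control-only myogenin 3, control-only p300 8 and bexarotene-only p300 1, and Des held 0 myogenin intervals. Synm then had no p300 interval in either list, Des had 1 in each, and Vim had 4 in p300_Ctl and 3 in p300_Bex. Where the nearest TSS had to be that of a member, Myog_Ctl held 5. Within 2 kb of a TSS there were 3 Myog_Bex and 8 p300_Ctl intervals, and with all annotated transcripts 2 Myog_Ctl intervals within 1 kb. The E-box share of Myog_Ctl went from 37.5% to 75.0% with the looser CANNTG, and its overlap with p300 from 12.5% to 0.0% at a reciprocal overlap of 50%, where that of Myog_Bex stayed at 15.4%. The share of all genes with an interval was 17.6%, 17.6%, 31.3% and 18.2% within 10 kb and 44.3%, 45.9%, 67.4% and 49.2% within 100 kb. The study reports an average depth over its libraries but no depth for each library, and the smallest intervals could not be ranked by signal.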

Other observations

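Intermediate filament genes of other tissues were counted as well, all 13 of which were in the annotation. At least 1 interval within 50 kb was found for 4 of them in Myog_Ctl, 5 in Myog_Bex, 10 in p300_Ctl and 3 in p300_Bex, which are 30.8%, 38.5%, 76.9% and 23.1%, beside 32.4%, 33.0%, 53.7% and 35.2% of all genes. Krt8, a keratin gene of simple epithelia, held 0, 3, 4 and 1 intervals in that order of lists. Its 3 Myog_Bex intervals were all bexarotene only, as was 54.9% of the whole Myog_Bex list. In that list 7.86% of all genes reached 3 intervals of any class, and 8.46% reached 2 that were bexarotene only. The 4 in p300_Ctl were reached by 14.3% of genes. Bfsp2, a filament gene of the lens, held 1, 1, 3 and 1. Prph, the peripherin gene of peripheral neurons, held 2, 1, 3 and 0. The 3 in p300_Ctl at both genes were reached by 22.1% of genes, and the 2 in Myog_Ctl at Prph by 14.9%.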
